A study of Mus musculus with 3 samples.

Results

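Cycling macrophages and monocytes made up 131 of the 28522 cells kept from 3 single-cell libraries of Lewis lung carcinoma tumours grown in mouse tibiae. They were chosen by counts of unique molecular identifiers (UMIs, each 1 captured RNA molecule). A cell had at least 5 UMIs over Mki67, Top2a, Stmn1 and Pclaf, with at least 2 over Mki67 and Top2a. It also had at least 2 UMIs over Csf1r, Adgre1, C1qa and Ccr2, at least 1 of Ptprc, and none of Cd3e, Flt3 or Hmga2. Krt8 and Krt18 together were held to 3 UMIs or fewer, which, with Hmga2, limited tumour RNA. The Mfn2 library held 17 of these cells, the Rhot1 library 54 and the WT library 60. The genes of the rule are described here without a test.

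Most tissue macrophages and blood monocytes have left the cell cycle, but macrophages can divide in place, in part under signals through Csf1r, the receptor for colony-stimulating factor 1. Monocytes enter tumours through Ccr2, lose Ly6c2 and gain macrophage genes such as those of complement C1q. Entry into S phase is driven by cyclins D and E with their kinases, which release E2F factors, and mitosis by a later set of genes with CHR and CCAAT elements in their promoters. Mki67 marks cells in any active phase, and Top2a untangles replicated DNA.

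LLC1 cells, the Lewis lung carcinoma line, were injected into the marrow of the right tibia and the tumours were dissected 2 weeks later. The Mfn2 library came from DMP1-Cre Mfn2-/- mice, the Rhot1 library from DMP1-Cre Rhot1-/- mice and the WT library from wild-type mice, all 8 weeks old. Each library mixed the tumours of 3 mice in equal parts, so each genotype is 1 sample and no test between genotypes can be made. Dmp1-Cre acts mainly in osteocytes and other cells of the osteoblast line, so the macrophages were not the cells meant to lose Mfn2 or Rhot1. The WT label names no Cre, so the deletion and the Cre carried with it cannot be told apart. Mfn2, an outer mitochondrial membrane fusion protein, had 4 UMIs in the cycling cells of the Mfn2 library, against 7 in those of the WT library. Rhot1, which ties mitochondria to microtubule motors, had 8 UMIs in the cycling cells of the Rhot1 library, against 7 in those of the WT library. Counts this small in cells that Dmp1-Cre does not target check neither genotype.

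The cycling cells had a median of 7010 UMIs in the Mfn2 library, 8327 in the Rhot1 library and 9595 in the WT library. The other macrophages and monocytes passed the same gate without the cycling genes and had medians of 4041, 4434.5 and 4204 UMIs in the same order of libraries. A deep cell reaches 5 UMIs more easily, so the gate itself favours depth. Summed over cells, the cycling class held 124932 UMIs in the Mfn2 library, 475234 in the Rhot1 library and 603434 in the WT library. Levels are given as CPM, the UMIs of a gene or list scaled to a sum of 1000000, and 1 UMI of the Mfn2 sum is 8.004 CPM. The libraries shared 21 to 35 cell barcodes pairwise. Scrublet, a doublet caller, marked 1 of the 131 cells, in the Rhot1 library.

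At the threshold, 2 cells of the Mfn2 library, 8 of the Rhot1 library and 8 of the WT library had 5 to 7 UMIs of the cycling genes. Just outside it, 84, 166 and 136 cells of the gate had 2 to 4 UMIs in the same order of libraries. The limits on keratin and Hmga2 left out 107, 106 and 101 further cells that passed every other step. Those cells had median depths of 23152, 22544.5 and 25942 UMIs, deeper than cycling tumour cells at 18647, 19073 and 21407 UMIs. Of mature neutrophils, which do not divide, 1 of 278, 0 of 151 and 0 of 196 passed the cycling gate. At 3 cells over the total, counts of 0 allow shares of up to 1.99% in the Rhot1 library and 1.53% in the WT library, and the exact two-sided 95% limits are 2.41% and 1.86%. The neutrophils were shallow, with medians of 1219 to 1392 UMIs.

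The cycling cells were placed by a macrophage and a monocyte gene list. Of the 131 cells, 98 had more UMIs of a list of 22 macrophage genes than of a list of 16 monocyte genes, and are called macrophage-leaning; the other 33 are called monocyte-leaning. The call is a position on a score, and 7 of the 131 cells had list sums within 2-fold of each other. Any cell without more macrophage than monocyte UMIs is called monocyte-leaning. That class therefore also holds cells low on both lists and cells with markers of other types, given below. The lists differ in level, with medians of 197 macrophage and 16 monocyte UMIs per cell. Equal sums are thus not a midpoint between the cell types. In 94 cells the macrophage list reached at least 5 times the monocyte list, and in 17 cells the reverse held. C1qb, a chain of complement C1q, had 5 or more UMIs in 91 of the 98 macrophage-leaning cells, against 1 of the 33 monocyte-leaning cells. Ly6c2, the surface protein of classical monocytes, was detected in 25 of the 33 monocyte-leaning cells, against 2 of the 98 macrophage-leaning cells.

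**Figure D1:**
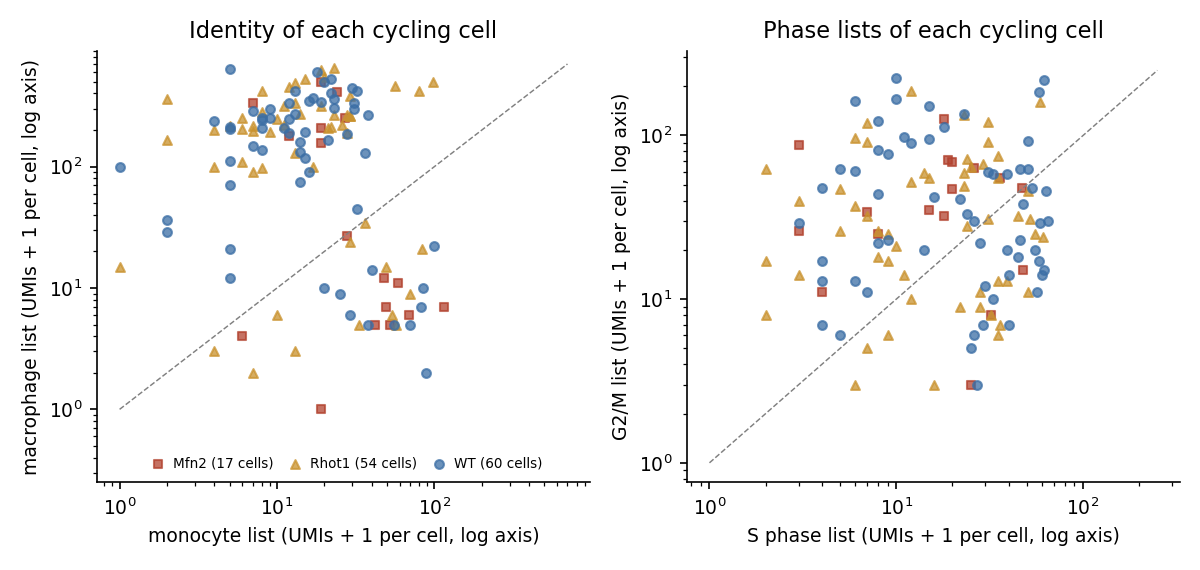
Each point is 1 of the 131 cycling cells (red squares Mfn2, yellow triangles Rhot1, blue circles WT), plotted as UMIs + 1 of the macrophage list against the monocyte list (left) and of the G2/M list against the S phase list (right), on log axes; the dashed line marks equal sums. On the left 98 cells lie above the line and 7 lie within 2-fold of it, while on the right the points spread without a gap.

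Genes of the lists describe the leaning classes; they made the call, so their separation follows from it, and Ccr2 is also a gene of the gate. Ccr2, the receptor that draws monocytes into tissue, had 730, 584 and 473 CPM in monocyte-leaning cycling cells of the Mfn2, Rhot1 and WT libraries, against 97.0, 134 and 126 CPM in macrophage-leaning ones. Mrc1, the mannose receptor of tissue macrophages, had 2278, 2358 and 1667 CPM in macrophage-leaning cycling cells of the Mfn2, Rhot1 and WT libraries. In monocyte-leaning cells Mrc1 had 0, 3 and 1 UMIs. Plac8, a monocyte gene, had 1491, 940 and 1668 CPM in monocyte-leaning cells, against 32.3, 60.5 and 20.7 CPM in macrophage-leaning cells of the same libraries.

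Antigen presentation varied most among the macrophage-leaning cells. Over 10 genes of MHC class II presentation, the 131 cells ranged between 0 and 609 UMIs, with a median of 4. At least 50 such UMIs were found in 30 of the 98 macrophage-leaning cells, against 2 of the 33 monocyte-leaning cells. By library, 1 of 7 macrophage-leaning cells reached 50 UMIs in the Mfn2 library, 10 of 42 in the Rhot1 library and 19 of 49 in the WT library.

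At least 3 UMIs of another cell type's markers were found in 46 of the 131 cells: 11 of 17 in the Mfn2 library, 15 of 54 in the Rhot1 library and 20 of 60 in the WT library. At least 3 UMIs of granulocyte-monocyte progenitor markers such as Mpo and Elane were found in 7 cells, all of them monocyte-leaning, with up to 73 UMIs in 1 cell. Neutrophil markers reached 3 UMIs in 30 cells, with 2884 UMIs in 1 WT cell. Natural killer cell markers reached 3 UMIs in 6 cells, with up to 16 UMIs, and T cell markers in 4, with up to 13 UMIs. All of these cells were monocyte-leaning. For natural killer cell markers the shares were 11.8%, 5.56% and 1.67% of cycling cells, against 1.51%, 2.92% and 2.64% of the others. Osteoclast markers reached 3 UMIs in 5 cells, with 291 UMIs in 1 WT cell. B lineage, dendritic cell and erythroid markers reached 3 UMIs in 0 of the 131 cells. Each count below that leads a comparison was recomputed without the cells that carried another type's markers; their part in the results was not tested otherwise.

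The Mfn2 library had the lowest share of macrophages and monocytes in cycle, and by the leaning calls the gap lay among the macrophage-leaning cells. In the Mfn2 library 1.81% of the gated cells were cycling (17 of 942, exact 95% binomial interval 1.06 to 2.87%), in the Rhot1 library 5.16% (54 of 1046, 3.90 to 6.68%) and in the WT library 4.44% (60 of 1350, 3.41 to 5.68%). The Mfn2 interval does not overlap the WT interval, while the Rhot1 interval does. The ratio to the WT share was 0.406 for Mfn2 (0.239 to 0.691) and 1.16 for Rhot1 (0.812 to 1.66). All these intervals cover counting error only, with 1 library per genotype.

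Among macrophage-leaning cells the cycling share was 1.17% in the Mfn2 library (7 of 601), 6.195% in the Rhot1 library (42 of 678) and 5.6% in the WT library (49 of 875). Among monocyte-leaning cells it was 2.93% (10 of 341), 3.26% (12 of 368) and 2.32% (11 of 475) in the same order, and all 3 intervals overlap. The ratio of the Mfn2 to the WT share was 0.208 (0.0949 to 0.456) in macrophage-leaning cells and 1.27 (0.544 to 2.95) in monocyte-leaning cells. Of the 10 monocyte-leaning cycling cells of the Mfn2 library, 6 had at least 3 UMIs of neutrophil markers and 2 of natural killer cell markers. In the Rhot1 library these were 3 and 3 of 12, and in the WT library 3 and 1 of 11. Shares by leaning class were not recomputed without such cells, so the placing of the gap rests on them too. Macrophage-leaning cells made up 41.2% of the cycling cells in the Mfn2 library, 77.8% in the Rhot1 library and 81.7% in the WT library. They made up 64.2%, 64.1% and 64.0% of the other cells, so the mix differed between libraries among cycling cells and hardly at all among the rest.

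Depth differed between libraries, so the shares were recomputed at equal depth. With each cell thinned to 5000 UMIs and shallower cells left out, the share was 4.14% in the Mfn2 library (12 of 290), 10.7% in the Rhot1 library (47 of 438) and 7.96% in the WT library (41 of 515), a Mfn2 to WT ratio of 0.520 (0.278 to 0.973). At this depth the Mfn2 interval (2.16 to 7.12%) overlaps the WT interval (5.77 to 10.65%). The limits on tumour RNA also set the share, and they removed unequal parts of the cycling cells. Before them 124, 160 and 161 cells had passed every other step in the Mfn2, Rhot1 and WT libraries. The keratin limit left 38, 85 and 78 of these, and the Hmga2 limit then left 17, 54 and 60. The part of these limits in the gap was not tested beyond the wider limits that follow. With limits of 6 keratin UMIs and 2 Hmga2 UMIs, chosen after the first values were seen, the shares were 2.67% (32 of 1198), 5.96% (79 of 1326) and 4.81% (76 of 1581), a Mfn2 to WT ratio of 0.556. Without cells that carried other types' markers the counts were 6 of 716, 39 of 866 and 40 of 1065, a Mfn2 to WT ratio of 0.223. In each of these settings the Mfn2 library was lowest.

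**Figure D2:**
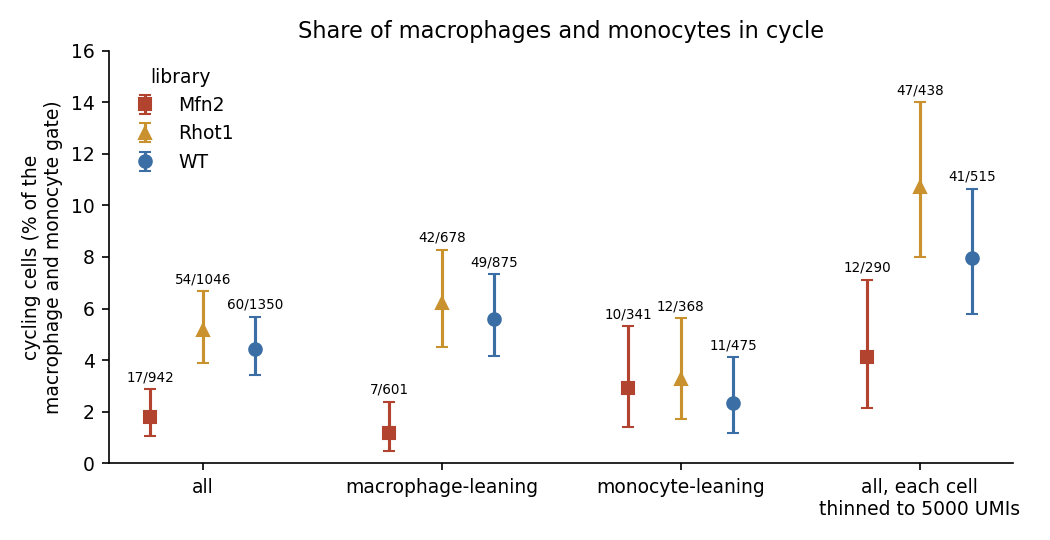
Cycling cells as a percentage of the macrophage and monocyte gate in the Mfn2, Rhot1 and WT libraries, for all cells, each leaning class, and all cells thinned to 5000 UMIs; bars are exact 95% binomial intervals and labels give cycling over gated cells. The Mfn2 library is lowest among all and macrophage-leaning cells, at 1.81% and 1.17%, and between the other libraries among monocyte-leaning cells, at 2.93%.

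Summed over cells, genes of S phase, G2 and mitosis other than those of the rule were higher in the cycling cells as well. The summed level of 30 S phase genes was 2657, 2361 and 2683 CPM in cycling cells of the Mfn2, Rhot1 and WT libraries, against 438, 549 and 550 CPM in the other macrophages and monocytes. The 34 G2/M genes summed to 5907, 4814 and 5290 CPM in cycling cells, against 459, 529 and 508 CPM in the others. Replication-dependent histones, made to package new DNA, summed to 3346, 2325 and 2192 CPM in cycling cells, against 314, 372 and 404 CPM. These genes follow the gate by construction, so the differences are a description.

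More G2/M than S phase UMIs were found in 14 of 17 cells in the Mfn2 library (82.4%), 34 of 54 in the Rhot1 library (63.0%) and 38 of 60 in the WT library (63.3%). With cells thinned to 2000 UMIs the shares were 70.6%, 61.1% and 60.0%, and the intervals of all 3 libraries overlap at both depths. Cycling tumour cells of the same libraries, gated on keratin UMIs and on the lack of leukocyte genes, had shares of 65.1%, 60.6% and 63.3%. Mki67 and Top2a were both detected in 111 of the 131 cells. Mki67, on chromosome 7 (135689784 to 135716361, minus strand, mm10), had 792, 806 and 844 CPM in cycling macrophages and monocytes of the Mfn2, Rhot1 and WT libraries. Top2a, on chromosome 11 (98992943 to 99024189, minus strand), had 1001, 688 and 723 CPM in them.

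The promoters of these lists carried the elements known from cell cycle genes. The E2F sites TTTCCCGC or TTTGGCGC, on either strand within the 250 bases upstream of the RefSeq start (GRCm38.p6), were found for 7 of the 23 S phase genes with a promoter sequence (30.4%), against 1.51% of 27025 genes. They were found for 0 of 29 G2/M genes. TTTGAA, the CHR core, was found for 9 of those 29 (31.0%), against 18.3% of all genes, and CCAAT for 21 of them (72.4%), against 37.5%. Neither was found in the G2/M list alone. CCAAT was found for 16 of the 23 S phase genes (69.6%) and 13 of 14 histone genes, and TTTGAA for 3 of those S phase genes (13%) and 6 of those histone genes (42.9%). A match describes these letters only. The stretches below show, in capitals, the E2F match of the S phase genes and the CHR match of the G2/M genes with the highest mean level in cycling cells among those with a match. Mcm5 and Mcm6 are subunits of the replicative helicase, Hmgb2 is a chromatin protein that peaks in mitosis, and Ube2c tags mitotic cyclins for destruction. Mcm5 (chr8:75109340-75109387, plus strand), Mcm6 (chr1:128359725-128359772, minus strand), Hmgb2 (chr8:57511793-57511838, plus strand) and Ube2c (chr2:164769880-164769925, plus strand) read, 5′ to 3′:
Mcm5: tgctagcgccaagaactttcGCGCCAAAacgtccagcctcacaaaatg
Mcm6: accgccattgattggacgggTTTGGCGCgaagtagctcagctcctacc
Hmgb2: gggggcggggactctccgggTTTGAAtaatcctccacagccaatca
Ube2c: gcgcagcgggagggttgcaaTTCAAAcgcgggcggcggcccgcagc

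Each of these 4 genes was found in the cycling cells of every library. Mcm5 had 112, 116 and 121 CPM in cycling cells of the Mfn2, Rhot1 and WT libraries, and Mcm6 96.1, 103 and 149 CPM. Hmgb2 had 1393, 724 and 1061 CPM in them, against 155, 135 and 163 CPM in the other macrophages and monocytes of the same libraries.

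Cycling cells also differed from the other macrophages and monocytes in genes outside the cell cycle. Each library's cycling cells were compared with its own other macrophages and monocytes, on summed UMIs, with the library as a block over the 3 libraries (edgeR's quasi-likelihood test, Benjamini-Hochberg adjustment over 10024 genes, genes of the rule left out of the lists). At an adjusted p of 0.05, 687 genes (6.85%) were higher and 645 genes (6.43%) lower in cycling cells. Without the Mfn2 library the counts were 947 and 930, without the Rhot1 library 414 and 285, and without the WT library 352 and 222. With cells thinned to 5000 UMIs they were 406 and 256. In gene comparisons thinning also left out cells under 5000 UMIs, so the set of cells changed along with the depth. With the gate applied after thinning, monocyte-leaning cells numbered 47, 85 and 82 in the Mfn2, Rhot1 and WT libraries. Unthinned, they numbered 341, 368 and 475.

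The largest increases outside the lists, by a rule on fold, level and the same direction in every library, were again mitotic or replication genes. Esco2, which ties sister chromatids together, had 152, 50.5 and 49.7 CPM in cycling cells of the Mfn2, Rhot1 and WT libraries, against 2.21, 3.49 and 1.62 CPM in the others. Prc1, which bundles the microtubules of the central spindle, had 280, 223 and 255 CPM, against 9.32, 16.4 and 8.58 CPM. Aspm, Pbk, Sgo2a, Kif15, Knl1 and Cdkn3 followed, with log2 differences of 4.25 to 4.0. These belong to the program the gate selects.

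The 8 largest decreases by the same rule included chemokines, a cytokine and a growth factor. Ccl24, an eosinophil chemokine of alternatively activated macrophages (chromosome 5, 135569937 to 135573049, minus strand), had 0, 14.7 and 6.63 CPM in cycling cells of the Mfn2, Rhot1 and WT libraries, against 125, 151 and 128 CPM in the others. The log2 difference was -4.06 ± 0.32 (SE, n = 3 libraries, edgeR adjusted p = 3.73e-07). Il1b, the cytokine interleukin 1 beta (chromosome 2, 129364570 to 129371139, minus strand), had 144, 118 and 109 CPM in cycling cells, against 598, 898 and 1033 CPM in the others. Its log2 difference was -3.05 ± 0.17 (SE, edgeR adjusted p = 8.83e-09). Every cycling value of both genes lay below every value of the other cells.

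Cxcl3, a neutrophil chemokine, had 16.01, 35.8 and 13.3 CPM in cycling cells, against 360, 313 and 289 CPM in the others. Vegfa, the vascular growth factor, had 8.00, 18.9 and 19.9 CPM in cycling cells, against 84.3, 80.2 and 132 CPM. Il7r, Ppbp, Retnlg and Rgcc were the other 4, with log2 differences of -3.97, -3.36, -3.03 and -2.63. Ppbp is a platelet chemokine and Retnlg a neutrophil gene. Neutrophil markers summed to 3450, 402 and 5086 CPM in cycling cells of the Mfn2, Rhot1 and WT libraries, against 2004, 1474 and 944 CPM in the others, and their part in these genes was not tested. In the WT library 1 cycling cell held 2884 of the 3069 neutrophil UMIs. All 16 genes kept their call with cells thinned to 5000 UMIs, under DESeq2 and without each library in turn. Without the cells that carried other types' markers all kept it except Retnlg, which was then too low to test.

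Most of the pro-inflammatory genes tested were lower in cycling cells. Of 17 tested pro-inflammatory genes 12 fell and 0 rose, with a median log2 difference of -1.21 beside -0.03 over all genes tested. Cxcl2, another neutrophil chemokine, had 248, 596 and 479 CPM in cycling cells of the Mfn2, Rhot1 and WT libraries, against 1786, 2037 and 2624 CPM in the others. Ptgs2, the inducible prostaglandin synthase, had 0, 29.5 and 18.2 CPM, against 60.8, 104 and 115 CPM. Tnf did not pass, with 0, 27.4 and 18.2 CPM against 13.2, 16 and 18.3 CPM (edgeR adjusted p = 0.9398). With thinned cells 7 of 16 fell, and without the WT library 5 of 17, under DESeq2 8 of 17.

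Immediate early genes moved the same way: of 23 genes known to rise when tissue is dissociated, 16 fell and 0 rose (median -1.02). With thinned cells 12 of 23 fell. Fos, an AP-1 subunit, had 576, 192 and 621 CPM in cycling cells, against 911, 940 and 1197 CPM in the others. The part of handling in the fall of the inflammatory genes, several of which are also induced early, was not tested.

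The genes of Arg1-positive tumour macrophages, of glycolysis and of the hypoxia response were lower in cycling cells in all 3 libraries. Of 17 tested genes of the Arg1 list 15 fell and 0 rose, and the same counts held with thinned cells. Arg1, arginase 1 (chromosome 10, 24915221 to 24927484, minus strand), had 424, 166 and 443 CPM in cycling cells of the Mfn2, Rhot1 and WT libraries, against 1813, 1185 and 1459 CPM in the others. Its log2 difference was -2.33 ± 0.16 (SE, edgeR adjusted p = 7.47e-08). Spp1, osteopontin, had 568, 816 and 381 CPM, against 2085, 1651 and 1733 CPM. Trem2, a lipid receptor of the same list, did not pass, with 336, 295 and 307 CPM against 332, 309 and 305 CPM (edgeR adjusted p = 0.433), but passed as lower with thinned cells.

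All 15 tested glycolysis genes fell (median -0.89), and 13 of 15 with thinned cells. The list summed to 7284, 6250 and 6397 CPM in cycling cells, against 10753, 9318 and 9464 CPM in the others. The largest fall was in Pfkfb3, which makes an activator of phosphofructokinase, with 32.0, 12.6 and 9.94 CPM in cycling cells of the Mfn2, Rhot1 and WT libraries, against 60.8, 41.0 and 51.9 CPM in the others. Slc2a1, the glucose transporter, had 88.1, 44.2 and 46.4 CPM in cycling cells, against 147, 115 and 144 CPM. Hk2, a hexokinase, had 56.0, 35.8 and 36.5 CPM, against 101, 92.7 and 101 CPM. Gapdh fell by 0.57 on the log2 scale (edgeR adjusted p = 0.000189).

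Of 19 tested hypoxia genes 15 fell and 0 rose (median -1.32), and 10 of 17 with thinned cells. Bnip3, a mitophagy receptor induced by low oxygen, had 56.0, 54.7 and 41.4 CPM in cycling cells of the Mfn2, Rhot1 and WT libraries, against 154, 125 and 146 CPM in the others. Car9 did not pass (edgeR adjusted p = 0.573), with 16.01, 4.21 and 4.97 CPM against 2.70, 4.51 and 2.43 CPM. ACGTG, the core of the hypoxia response element, was found on either strand in the 250 bases upstream of 14 of the 18 hypoxia genes with a promoter sequence (77.8%) and of 8 of the 15 glycolysis genes (53.3%), against 18.5% of all genes. Below are the matches of Fam162a and Egln1, the genes of the hypoxia list with the highest mean level in cycling cells among those with a match. Egln1 is an oxygen sensor that marks the hypoxia factor for destruction, and Fam162a is a mitochondrial protein. Fam162a (chr16:36071618-36071662, minus strand) and Egln1 (chr8:124949298-124949342, minus strand), GRCm38.p6, 5′ to 3′, match in capitals:
Fam162a: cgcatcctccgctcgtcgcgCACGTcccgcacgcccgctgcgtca
Egln1: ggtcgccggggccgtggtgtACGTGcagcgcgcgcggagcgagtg

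Fam162a had 72.0, 96.8 and 108 CPM in cycling cells of the Mfn2, Rhot1 and WT libraries, against 177, 158 and 157 CPM in the others, and fell by 0.88 on the log2 scale. Egln1 had 56.0, 90.5 and 51.4 CPM, against 107, 90.7 and 109 CPM, and fell by 0.74 on the log2 scale (edgeR adjusted p = 0.0496), a call lost with thinned cells, under DESeq2, with its size factors, without the WT library and without cells carrying other types' markers. In the Rhot1 library its values in cycling and other cells were almost equal.

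A list of lung carcinoma markers was lower in cycling cells too. The list summed to 3018, 2809 and 2870 CPM in cycling cells of the Mfn2, Rhot1 and WT libraries, against 5683, 5147 and 5130 CPM in the others. In cycling tumour cells of the same libraries it summed to 12625, 11934 and 12214 CPM. A narrower set of tumour markers, which includes Krt8, Krt18 and Hmga2 of the gate, had 72.0, 65.2 and 44.7 CPM in cycling cells. That set had 104, 98.9 and 80.4 CPM in the others and 1637, 1454 and 1245 CPM in cycling tumour cells. The gates themselves are set on Krt8 and Krt18, and that of the macrophages and monocytes also on Hmga2. The contrast of the narrower set follows in part from them. It cannot show how much of the list's level in macrophages and monocytes was tumour RNA. Glycolysis genes were higher in the other macrophages and monocytes, as given above, than in cycling tumour cells, which had 8834, 7825 and 7952 CPM. Hypoxia genes summed to 992.5, 850.1 and 884.9 CPM in cycling macrophages and monocytes, against 2057, 1766 and 2080 CPM in the others and 2101, 1594 and 1805 CPM in cycling tumour cells. The part of tumour RNA in these differences was not tested further.

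**Figure D3:**
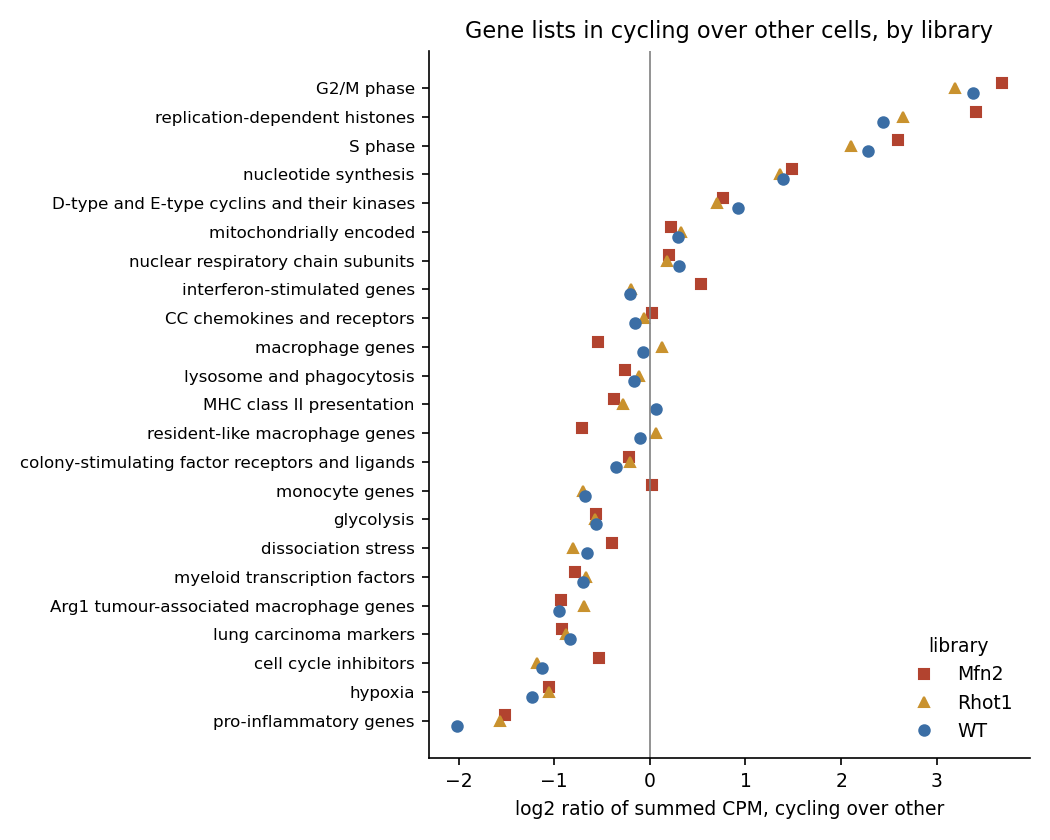
The log2 ratio of each list's summed CPM in cycling over other macrophages and monocytes, 1 point per library (red square Mfn2, yellow triangle Rhot1, blue circle WT), lists ordered by their mean. The glycolysis, hypoxia, Arg1 and pro-inflammatory lists lie left of 0 in all 3 libraries; the cell cycle lists at the top follow from the gate.

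**Figure D4:**
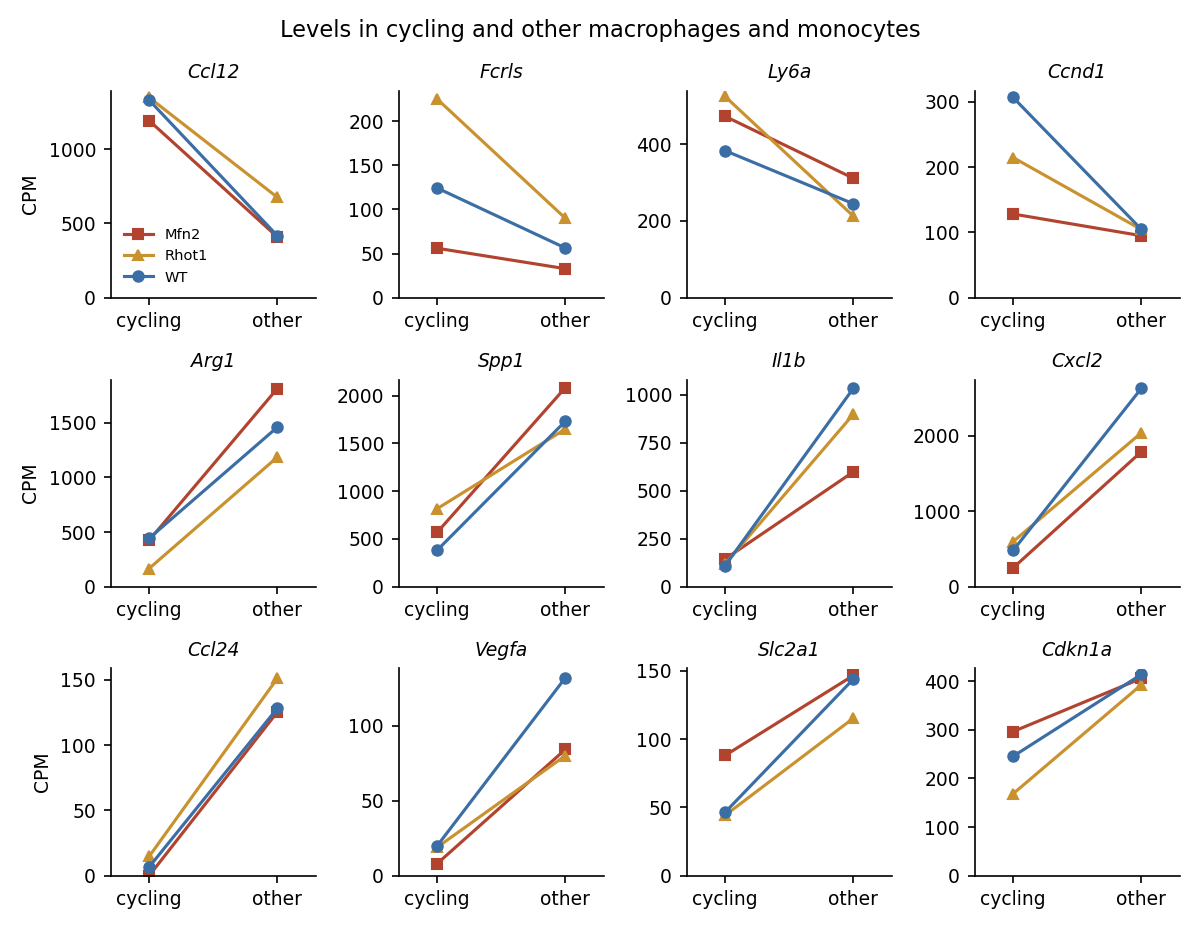
CPM of 12 genes in cycling cells (left in each panel) and other macrophages and monocytes (right), with 1 line per library and axes that start at 0. Arg1, Spp1, Il1b, Cxcl2, Ccl24, Vegfa, Slc2a1 and Cdkn1a are lower in cycling cells in every library; Ccl12, Fcrls, Ly6a and Ccnd1 are higher.

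Myeloid transcription factors that passed the test were lower in cycling cells, while inhibitors of the cell cycle moved in both directions. Of 22 tested myeloid transcription factors 13 fell and 0 rose. With thinned cells 7 of 20 fell, without the Rhot1 library 8 of 22 and without the WT library 7 of 22. Klf4, of the monocyte line, had 104, 54.7 and 82.9 CPM in cycling cells of the Mfn2, Rhot1 and WT libraries, against 145, 135 and 185 CPM in the others. Spi1, the master factor of the myeloid line, did not pass, with 400, 406 and 461 CPM against 465, 488 and 461 CPM (edgeR adjusted p = 0.102).

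Among 10 tested inhibitors of the cell cycle 5 fell and 2 rose. The cells were gated on cycling genes, so the calls on this list are a description. Btg1, an antiproliferative gene, had 448, 284 and 293 CPM in cycling cells of the Mfn2, Rhot1 and WT libraries, against 871, 981 and 941 CPM in the others. Cdkn1a, which encodes the kinase inhibitor p21, had 296, 168 and 245 CPM, against 406, 392 and 414 CPM. Cdkn2c, which inhibits the cyclin D kinases, rose instead, with 64.0, 58.9 and 54.7 CPM against 11.0, 16.4 and 11.3 CPM (log2 difference 1.99 ± 0.25, SE, edgeR adjusted p = 4.31e-05). Of 13 tested p53 targets 1 fell and 0 rose.

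The drivers of S phase entry rose unevenly. Of 19 tested cyclins, kinases and E2F genes 11 rose and 0 fell. Genes of this list are tied to the gate as well, so their rise is a description. With thinned cells 6 of 16 rose, and without the WT library 6 of 19. Ccne1, cyclin E1, had 32.0, 33.7 and 34.8 CPM in cycling cells of the Mfn2, Rhot1 and WT libraries, against 3.19, 3.49 and 3.56 CPM in the others. Ccnd1, cyclin D1, which carries growth factor signals to the cell cycle, had 128, 215 and 307 CPM, against 94.9, 104 and 105 CPM (edgeR adjusted p = 0.00156). It did not pass with thinned cells or without the WT library. Its values in cycling cells spread more than those in the other cells.

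Of 8 tested receptors and ligands of the colony-stimulating factor list 4 fell and 0 rose. With thinned cells 0 of 7 were called, without the Rhot1 library 0 of 8 and without the WT library 1 of 9. Csf2ra, the receptor chain for granulocyte-macrophage colony-stimulating factor, had 120, 126 and 149 CPM in cycling cells of the Mfn2, Rhot1 and WT libraries, against 184, 191 and 191 CPM in the others. Csf1r was part of the rule and had 368, 333 and 385 CPM in cycling cells, against 367, 380 and 404 CPM in the others. Csf1, its ligand, was low, at 8.00, 10.5 and 8.29 CPM in cycling cells, against 6.13, 8.20 and 8.42 CPM.

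Macrophage genes moved in both directions. Of 20 tested macrophage genes 3 rose and 4 fell (median -0.14, with 1 rising without the Rhot1 or the WT library), and of 13 resident-like genes 2 rose and 3 fell. Mrc1 had 1129, 1974 and 1470 CPM in cycling cells of the Mfn2, Rhot1 and WT libraries, against 1337, 1543 and 1178 CPM in the others (edgeR adjusted p = 0.961). Fcrls, a macrophage receptor, had 56.0, 225 and 124 CPM, against 32.9, 90.0 and 56.3 CPM (edgeR adjusted p = 0.00104), and did not pass with thinned cells. Pf4, a chemokine of resident macrophages, fell, with 3114, 4770 and 3440 CPM against 6955, 5625 and 4453 CPM. With thinned cells 0 macrophage genes rose and 7 of 20 fell, and 0 resident-like genes rose and 3 of 13 fell.

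Of 16 monocyte genes 10 fell and 1 rose, but with thinned cells 2 of 14 fell and 0 rose. Without the Rhot1 library 6 fell and 0 rose, and without the WT library 6 fell and 1 rose. Plac8 had 768, 206 and 217 CPM in cycling cells of the Mfn2, Rhot1 and WT libraries, against 645, 661 and 728 CPM in the others, higher in the Mfn2 library and lower in the other two. Ly6a, an interferon-inducible surface protein, rose, with 472, 524 and 383 CPM against 311, 213 and 245 CPM, and did not pass with thinned cells or without the Rhot1 library.

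Chemokines split. Of 14 tested CC chemokines and receptors 2 rose and 7 fell, and 2 rose and 4 fell without the Rhot1 library. Ccl12, a ligand of Ccr2 (chromosome 11, 82101845 to 82103400, plus strand), had 1193, 1349 and 1331 CPM in cycling cells of the Mfn2, Rhot1 and WT libraries, against 409, 676 and 417 CPM in the others. Its log2 difference was 1.25 ± 0.12 (SE, edgeR adjusted p = 3.64e-06), and 0.52 with thinned cells, still past the threshold. Ccl8 also rose, and did not pass with thinned cells, without the library as a block or with the other cells sampled to the same leaning mix. Ccl6 and Ccl9, abundant myeloid chemokines, fell by 0.81 and 0.98 on the log2 scale.

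Antigen presentation, interferon and mitochondrial genes differed in their shares of calls. Over all genes tested, 6.85% were higher and 6.43% lower. The falling shares of MHC class II and interferon-stimulated genes lay above this, and the rising share of nuclear respiratory chain genes near it. Of 8 tested MHC class II genes 2 fell, Cd74 and H2-Ab1, by 0.37 and 0.41 on the log2 scale, and neither passed under DESeq2, without the Rhot1 library or without the WT library. Of 34 interferon-stimulated genes 6 fell, against 14 without the Mfn2 library and 3 of 33 and 3 of 34 without the Rhot1 and WT libraries. Of 38 nuclear genes of the respiratory chain 2 rose and 0 fell, but 0 were called with thinned cells. Of 12 mitochondrially encoded genes 0 were called by edgeR or DESeq2, and 2 rose without the Mfn2 library. Lysosome and phagocytosis genes fell in 9 of 31 cases, in 14 of 31 with thinned cells and in 4 of 31 without the Rhot1 library.

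Cycling macrophages and monocytes differed from the cycling tumour cells beside them in cyclin D members, nucleotide synthesis and, in both directions, brakes on the cycle. In the same paired test against cycling tumour cells, 2557 of 13165 genes (19.4%) were higher and 3258 (24.7%) lower. Without the Rhot1 library 1670 were higher and 2393 lower, and without the WT library 1692 were higher and 1977 lower. Without the macrophages and monocytes that carried other types' markers, 2093 were higher and 2675 lower. Of the 30 S phase genes 6 were higher and 7 lower, and of the 34 G2/M genes 13 were higher and 3 lower, against 7 and 3 without the cells that carried other types' markers. Without the Rhot1 library 3 S phase and 7 G2/M genes were higher, and without the WT library 3 and 8.

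The cyclin D genes differed by member. Ccnd2 had 48.0, 88.4 and 66.3 CPM in cycling macrophages and monocytes of the Mfn2, Rhot1 and WT libraries, against 227, 238 and 194 CPM in cycling tumour cells (log2 difference -1.66 ± 0.19, SE, edgeR adjusted p = 9.09e-18). Ccnd3 had 184, 135 and 101 CPM in cycling macrophages and monocytes, against 65.3, 58.5 and 60.1 CPM in cycling tumour cells (edgeR adjusted p = 2.33e-07). Myc, a driver of growth, had 24.01, 18.9 and 19.9 CPM in the cycling macrophages and monocytes, against 113, 113 and 125 CPM in the tumour cells. The values of the 2 cell kinds did not overlap for any of these genes.

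Brakes on the cycle moved in both directions, and the genes named here were higher in the cycling macrophages and monocytes. Rb1, the retinoblastoma protein that holds E2F factors, had 40.02, 50.5 and 51.4 CPM in them, against 3.38, 3.97 and 3.90 CPM in cycling tumour cells (log2 difference 3.59 ± 0.38, SE, edgeR adjusted p = 1.21e-19). Cdkn1a had 296, 168 and 245 CPM, against 73.2, 63.6 and 46.4 CPM. Btg2, another antiproliferative gene, had 168, 131 and 136 CPM, against 5.40, 5.99 and 6.72 CPM. Of 10 tested inhibitors 4 were higher and 3 lower in the cycling macrophages and monocytes, beside 19.4% higher and 24.7% lower over all genes. Without the WT library 3 were higher and 0 lower.

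Nucleotide synthesis genes were mostly lower: 17 of 23 tested genes were lower and 4 higher in cycling macrophages and monocytes (median -1.09). Cad, which opens pyrimidine synthesis, had 32.0, 21.0 and 28.2 CPM in them, against 102.5, 103 and 93.8 CPM in cycling tumour cells. The purine genes Impdh2, Ppat, Gart and Atic were lower as well, by 1.68, 1.35, 1.09 and 1.31 on the log2 scale. Dck, which salvages deoxynucleosides, was higher, with 24.01, 48.4 and 33.1 CPM against 9.02, 11.0 and 11.2 CPM, as were Tk1, Rrm1 and Tyms. Depth differed between the 2 kinds, as given above, and was not equalised in this comparison.

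Between genotypes, the cycling cells can only be compared as 1 pool against 1 pool, with no test. A gene counted as past the fold when its log2 ratio, with a pseudocount of 5 CPM, was at least 0.58 in size, among genes of at least 10 CPM in either library. In the Mfn2 over WT comparison 1929 of 8684 genes (22.2%) were higher and 1945 (22.4%) lower, and in the Rhot1 over WT comparison 1121 of 8768 (12.8%) and 866 (9.88%). Scaling by TMM shifted the median log2 ratio of all genes for Mfn2 to -0.12 and gave 1538 higher and 2260 lower. With at least 20 UMIs over both libraries, 13.9% were higher and 19.5% lower for Mfn2, and 8.18% and 7.49% for Rhot1. Counts over lists are given beside these shares.

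MHC class II genes were lower in the cycling cells of both deletion libraries. In the Mfn2 library 6 of 7 measured genes were past the fold and lower (median log2 ratio -0.98), and in the Rhot1 library 7 of 7 (median -0.98). With the leaning classes weighted alike the medians were -0.34 and -0.45, with 0 of 7 and 1 of 7 genes past the fold. The list summed to 3978 CPM in the Mfn2 library (95% Poisson interval 3636 to 4344), 4509 in the Rhot1 library (4320 to 4704) and 8491 in the WT library (8260 to 8727). H2-Aa, an MHC class II chain, had 664 CPM in the Mfn2 library, 665 in the Rhot1 library and 1319 in the WT library. In the Mfn2 library 71.1% of its UMIs came from 1 cell, against 18.7% and 9.55% in the Rhot1 and WT libraries. Cd74, the invariant chain, had 1913 CPM in the Mfn2 library, 2605 in the Rhot1 library and 4517 in the WT library.

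The same order held outside the cycle. The list summed to 5153 CPM in the Mfn2 library, 5473 in the Rhot1 library and 8126 in the WT library among the other macrophages and monocytes. Within macrophage-leaning cycling cells it summed to 3410, 4878 and 9601 CPM in the same order, with 195 of the 211 UMIs of the Mfn2 library in 1 cell. In monocyte-leaning ones the order turned, with 4536, 2653 and 292 CPM. There 1 cell held 273 of the 286 UMIs in the Mfn2 library and 1 cell 198 of the 209 in the Rhot1 library. Both comparisons use the same WT cells.

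Interferon-stimulated genes were higher in the Mfn2 library, with 23 of 33 measured genes past the fold and higher and 1 lower (median 0.96). In the Rhot1 library 14 of 30 were higher and 1 lower (median 0.46, and -0.041 with the leaning classes weighted alike). The list summed to 4667 CPM in the Mfn2 library, 3131 in the Rhot1 library and 2559 in the WT library. The top cell held 170 UMIs of the list in the Mfn2 library, 176 in the Rhot1 library and 122 in the WT library. With 17 cells in the Mfn2 library, its top cell made up a larger part of the sum there, and the next cell had 51 UMIs. The sum without the top cell was not computed. Isg15, a ubiquitin-like antiviral protein, had 216 CPM (27 UMIs) in the Mfn2 library, 126 (60 UMIs) in the Rhot1 library and 58.0 (35 UMIs) in the WT library. Of these UMIs 51.9%, 43.3% and 20% came from 1 cell of each library. Among the other macrophages and monocytes the list summed to 3230, 3590 and 2957 CPM, closer together than in cycling cells.

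The medians of the monocyte and macrophage lists depended on which cells were counted. The median log2 ratio of Mfn2 to WT was 1.07 over monocyte genes (8 of 14 higher, 3 lower) and -0.38 over macrophage genes (1 of 19 higher, 5 lower). With macrophage-leaning cells alone these were -0.083 and 0.38, the opposite direction. The leaning call is made from these same lists, so this change follows in part from the call. It also rests on 7 cells of the Mfn2 library. In the Rhot1 library macrophage genes had a median of 0.42 (6 of 21 higher, 1 lower) and resident-like genes of 0.49 (6 of 14 higher, 0 lower). Selenop, a selenium carrier of resident macrophages, had 608 CPM in the Mfn2 library, 1244 in the Rhot1 library and 703 in the WT library.

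**Figure D5:**
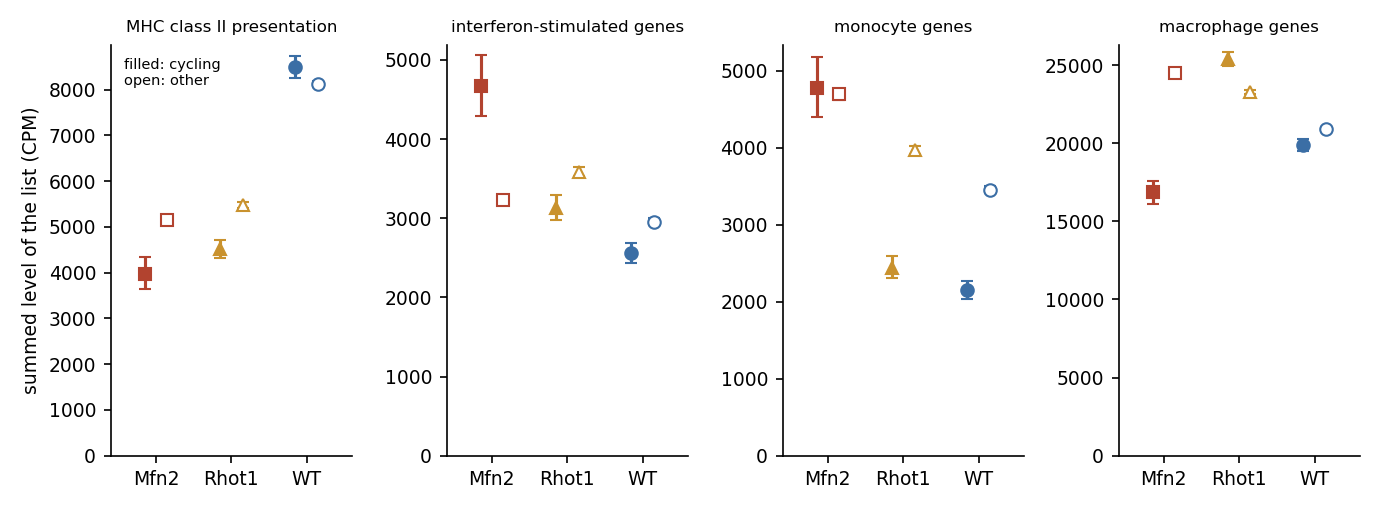
Summed CPM of 4 lists in the Mfn2, Rhot1 and WT libraries, in cycling cells (filled) and other macrophages and monocytes (open), with 95% Poisson intervals that cover counting error only. MHC class II lies near 8491 CPM in WT cycling cells and below 4600 CPM in both deletion libraries, and the monocyte list is highest in Mfn2 cycling cells.

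The S phase and G2/M lists had medians near 0 between genotypes within cycling cells. The median log2 ratio to WT was -0.03 for S phase and 0.02 for G2/M genes in the Mfn2 library, and -0.17 and -0.06 in the Rhot1 library. Replication-dependent histones had medians of 0.10 and 0.11, with 3 of 12 and 1 of 13 measured genes higher, but their sums, given above, were 3346 CPM for Mfn2 and 2325 CPM for Rhot1, against 2192 CPM for WT. Among the 7 macrophage-leaning cells of the Mfn2 library alone the G2/M median was -0.71, with 19 of 34 genes lower. Mitochondrially encoded genes had medians of 0.22 and 0.50, with 3 of 11 and 4 of 12 higher. Genes of mitochondrial dynamics and transport had medians of 0.21 (14 measured) and 0.22 (13 measured). Nuclear respiratory chain genes had medians of -0.19 and -0.16.

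Single genes past the fold rested on few UMIs. By the rule on fold, level and spread over cells, Aim2, a sensor of cytosolic DNA, led the Mfn2 increases with 10 UMIs in the Mfn2 library against 8 in the WT library, a ratio of 6.04 (95% interval 2.15 to 17.6). Ctdspl, Ints5, Gde1, Cryzl1, Zfp277, Fgr and Tbc1d31 followed with 8 to 15 UMIs each in the Mfn2 library. Plod1, a collagen lysyl hydroxylase, had 0 UMIs there against 65 in the WT library, 4.49-fold lower when 0 is set to 3 counts per library. Arfgap2, Akr1b10, Zfhx3 and Bop1 also had 0 UMIs, 2.35-, 2.28-, 2.14- and 2.14-fold lower with the same setting. The exact upper 95% limits of the ratio to WT allow smaller falls. They were 0.282 for Plod1 and 0.554, 0.571, 0.610 and 0.610 for the other 4. Mgl2, Adam10 and Upf3b had 6, 1 and 1 UMIs.

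In the Rhot1 library Lpl, lipoprotein lipase, had 27.4 CPM, against 109 CPM in the WT library, and Fos had 192 CPM, against 621 CPM. Coro7, Manbal, Pgap6, Rin2, Smarcd2, B3gat3, Jmjd6 and Mis18a were the largest increases by the rule, and Taf3, Ndufs1, Tbxas1, Pelp1, Slamf8 and Dctn5 the other decreases. No theme was tested for either set.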

How the data were processed

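The deposited matrices hold raw UMI counts per gene and cell barcode, made by the authors with Cell Ranger 7.0.0, per the file headers, on mm10, per the submitters' processing notes. Cells with at least 300 genes and at most 15% mitochondrial UMIs were kept, 9868, 9359 and 9295 in the Mfn2, Rhot1 and WT libraries, and gated on raw counts. Members and gene lists were chosen with earlier results of these data known. Counts were summed per library and class.

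Cycling cells were compared with other macrophages and monocytes, and with cycling tumour cells, over the 3 libraries with edgeR 4.0.16 (R 4.3.3, quasi-likelihood test, library as a block because each pair comes from the same pooled mice, Benjamini-Hochberg adjustment, threshold 0.05). DESeq2 1.42.0 was an alternative. The SE is the log2 difference over the root of the F statistic. The libraries differ in genotype, so the error between them holds genotype as well as technical spread. The steps were tested on simulated data first. Genotypes, with 1 library each, were compared by value only, with exact binomial (Clopper-Pearson), Poisson and conditional ratio intervals, which cover counting error only.

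Named genes were the 8 largest differences each way. Between states these were called, moved the same way in every library and reached 50 CPM in 1 state. Between genotypes they reached 50 CPM in 1 library, with no cell holding over 20% of the UMIs where the gene was higher. Both leave out genes of the gate, mitochondrial, ribosomal, haemoglobin, immunoglobulin and unnamed genes, the first also cell cycle lists, and the second genes much higher over all cells than over cycling cells. Other genes are members of the lists. Levels below 1 UMI per sum cannot be seen: 3 UMIs are 24.01, 6.313 and 4.972 CPM in the cycling sums of the Mfn2, Rhot1 and WT libraries. Gene positions are from GENCODE M21 and promoters from RefSeq (GRCm38.p6). Figures and counts used Python 3.11.15, and Scrublet ran in scanpy 1.11.5. Alternatives were depth, filters, scaling, doublets, gates, the mix of leaning classes and leaving out each library. The result for 1 gene is not reported here.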

Additional observations from a re-analysis of the deposited data

How the results depend on the processing

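Calls between cycling and other cells depended on which library was left out and on depth. Without each library in turn 352 to 947 genes were higher and 222 to 930 lower; DESeq2 called 286 lower, and thinned cells gave 406 higher and 256 lower. Ly6c2 had -0.69 to 0.65 without each library and -1.11 without cells that carried other types' markers. With thinned cells Chil3 (0.041), Hp (0.12), Gpr141 (0.31), C1qc (-0.10) and Ccl7 (-0.43) changed sign. Against cycling tumour cells 1670 to 2562 genes were higher and 1977 to 3076 lower without each library in turn; without macrophages and monocytes with other types' markers 2093 were higher and 2675 lower. Without the replicate block, 793 genes were higher and 669 lower in cycling than in other cells, and 2749 higher and 3459 lower than in cycling tumour cells.

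Counts between genotypes moved as well. For Mfn2 over WT, 2889 genes were higher and 3460 lower without the filter, 3097 and 2571 with thinned cells, 830 and 3111 without each gene's top cell, 2692 and 3014 without cells carrying other types' markers, 1538 and 2260 with TMM, 2117 and 1852 with median-ratio size factors, and 723 higher and 1014 lower at 20 or more UMIs. For Rhot1 over WT, the filter left out gave 1694 higher and 1574 lower, thinning 1691 and 1703, equal weight of the leaning classes 1932 and 1591, other types' markers left out 1375 and 1322, and 20 or more UMIs 529 and 484. Mfn2 list medians changed sign for monocyte genes (-0.13 weighted alike, -0.083 in macrophage-leaning cells), macrophage genes (0.43 and 0.38), pro-inflammatory genes (0.19 at 20 or more UMIs) and inhibitors (-0.20 in macrophage-leaning cells). For Rhot1, interferon-stimulated genes (-0.041 weighted alike) and Ndufs1 (0.30 thinned) did so. The log2 ratio of the Mfn2 to the WT cycling share was -2.16 without cells that carried other types' markers, against -1.3, and kept its sign under every gate tried. The cause of these changes was not tested. The 17 cells and 124932 UMIs of the Mfn2 library limit every gene-level comparison with it. The alternatives with at least 20 UMIs, macrophage-leaning cells only, wider tumour limits, and counts between cell classes without other types' markers were chosen after seeing the data.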
